A study of Homo sapiens and Mus musculus with 36 samples.

Results

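Proteasome subunit genes encode the protein parts of the 26S proteasome, the particle that degrades ubiquitin-tagged proteins. Members were the genes whose symbol, written in capitals, is PSMA, PSMB, PSMC or PSMD followed by digits only and that had a row in each of the 13 deposited comparisons. The rule gave 37 genes, of 11586 genes with a row in every human table and 15608 with a row in every mouse table. They comprised 14 core genes (PSMA1 to PSMA7 and PSMB1 to PSMB7), 20 regulatory genes (PSMC1 to PSMC6 and PSMD1 to PSMD14) and the 3 immunoproteasome genes PSMB8, PSMB9 and PSMB10.

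The core particle is a barrel of stacked rings: PSMA genes encode the outer alpha rings, which gate the entrance, and PSMB genes encode the inner beta rings, which hold the cutting sites. PSMB5, PSMB6 and PSMB7 encode the constitutive catalytic subunits, and after interferon signalling, and constitutively in lymphoid cells, PSMB8, PSMB9 and PSMB10 take their places and change which peptides are made for antigen presentation. The regulatory cap carries a ring of ATPases (PSMC genes) that unfold substrates, and PSMD genes encode scaffolds, ubiquitin receptors, the lid with its deubiquitinase PSMD14, and the assembly chaperones PSMD5, PSMD9 and PSMD10. In mammalian cells the transcription factor NFE2L1 raises proteasome genes together when proteasome activity is short.

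The series measured RNA by sequencing in 36 libraries, 18 groups of 2. HepG2 and Huh7 are human liver cancer lines, and WEHI-231 is a mouse B-lymphoma line. HepG2 cells received 5 uM MS7126 (named in the series as a degrader of the histone methyltransferase EZH2), 5 uM C24 (its matched inhibitor), 5 uM MS7126N1 or MS7126N2 (analogs described as lacking degrader activity), or DMSO, for 48 h. Huh7 cells received 5 uM MS7126 or DMSO, for 24 h by 1 label and 48 h by another. WEHI-231 cells received 1 uM MS8815 (another EZH2 degrader), EPZ-6438 (an EZH2 inhibitor), MS8815N (an analog described as lacking degrader activity) or DMSO for 16 h. Further groups were selected with puromycin after lentiviral delivery of short hairpins: shEZH2 or shControl in Huh7, and shEZH2, shSREBP2 #664, #665 or #667, or shControl in HepG2. The labels describe shControl as an empty vector and the series text as a scramble hairpin, so which of these it was is not settled. The 4 HepG2 hairpin groups share 1 pair of shControl libraries, the 4 HepG2 compounds 1 pair of DMSO libraries, and the 3 WEHI-231 compounds another pair. Whether paired libraries are separate cultures is not stated in the labels. The p-values therefore reflect the scatter of these libraries alone, which may be technical.

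Hepatocyte markers (ALB, APOA1, AFP, TTR, SERPINA1, HNF4A) all had rows in the HepG2 and Huh7 tables, with a summed mean of 0.824% to 3.32% of the table, whereas 1 of 6 had a row in WEHI-231. B cell markers summed to 0.612% to 0.624% in WEHI-231 and to at most 0.000258% in the liver lines. T cell markers summed to at most 0.000209% in any table, fibroblast markers to at most 0.00574%, and myeloid markers to 0.0131% to 0.222% in the liver lines and at most 0.000440% in WEHI-231. In bulk RNA a smaller share of cells and less RNA per cell cannot be told apart. For 12 of the comparisons only the authors' own fold changes were analysed, and group levels given for them below, in normalised counts, were rebuilt from the mean and the fold change of the authors' deposited table. Huh7 shEZH2 alone has values per library, from 10106193 to 11954322 estimated counts each. In HepG2 the libraries labelled shEZH2 went against their label, since EZH2 itself was higher there in the authors' deposited table (log2 fold change 0.90, SE 0.38, adjusted p = 0.0337), so they are called "the libraries labelled shEZH2" throughout. SREBF2, the target of the other hairpins, fell, with log2 fold changes of -1.58 with #664, -1.08 with #665 and -2.35 with #667 in the authors' deposited tables. With #664 EZH2 was called lower too, in the authors' deposited table.

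Per kilobase of transcript, some core genes stood highest, while others were low (PSMA5 ranked 32 of 37 in HepG2 and 31 in Huh7), as were PSMB8 and PSMB9. In DMSO-treated HepG2 cells, with levels rebuilt from the authors' deposited table, PSMA7 had the highest level, 7348 normalised counts per kilobase, followed by PSMB5 with 4790, PSMB3 with 4662 and PSMA6 with 4654. PSMB8 had 402 and PSMB9 181 normalised counts per kilobase there, and the chaperones PSMD5 and PSMD9 were lowest with 121 and 113. In the Huh7 shControl libraries PSMA7 also led, with 462 CPM (counts scaled to the library total after TMM adjustment) per kilobase, and PSMB9 and PSMB8 were lowest with 2.30 and 3.83. PSMB10, at 512 normalised counts per kilobase in HepG2 and 13.3 CPM per kilobase in Huh7, ranked 25 of 37 in HepG2 and 34 of 37 in Huh7. These lengths are those of a protein-coding GENCODE transcript, so the order between neighbours may shift with the isoform used.

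On GRCh38 (GENCODE annotation), the immunoproteasome genes PSMB8 (chr6:32840717-32844703, minus strand) and PSMB9 (chr6:32844136-32859585, plus strand) overlap each other in the MHC class II region, and PSMB10 lies at chr16:67934502-67937087, minus strand. PSMD8, the lid gene with the largest rise under MS7126 in HepG2, lies at chr19:38374536-38383824, plus strand. PSMA5, the alpha-ring gene with the largest difference between cell lines among those called, lies at chr1:109399031-109426427, minus strand. PSMD7, a lid gene high in the HepG2 hairpin groups, lies at chr16:74296775-74306288, plus strand. Of the 37 members, 16 overlap a gene on the opposite strand and 11 have named pseudogenes, 13 of these 30 for PSMC1, and whether the authors' counting used strand is not given in the sources used here.

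RefSeq promoter windows of GRCh38.p14, from 250 bases before to 50 after the start, matched 32 of the 37 members in 39 windows. The core of the antioxidant response element, TGACNNNGC, which NFE2-family factors bind, was present on either strand in 25.6% of member windows and 13.3% of all 35116 windows. The CCAAT box, CCAAT, was present in 43.6% of member windows and 34.6% of all, the gamma-activated site, TTCNNNGAA, in 15.4% and 7.66%, and the interferon-stimulated response element in 10.3% and 3.57%. No match of one motif overlapped a match of another in these windows, and a match describes letters only. The stretches below show some of the matches, in capitals, each 60 bases written 5′ to 3′ along the gene's strand. First come antioxidant response element cores of some of the 10 members with a match, each changed under MS7126 or a hairpin. The matches in PSMA4, PSMC4, PSMC5, PSMD1 and PSMD5 are not shown, though these genes changed under MS7126 or a hairpin too.
PSMB3 (chr17:38752612-38752671): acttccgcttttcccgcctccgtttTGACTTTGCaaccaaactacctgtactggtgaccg
PSMD12 (chr17:67366708-67366767): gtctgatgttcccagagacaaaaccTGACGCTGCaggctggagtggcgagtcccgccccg
PSMD3 (chr17:39980745-39980804): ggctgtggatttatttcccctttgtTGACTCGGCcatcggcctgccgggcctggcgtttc
PSMD9 (chr12:121888616-121888675): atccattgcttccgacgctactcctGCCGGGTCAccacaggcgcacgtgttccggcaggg
PSMB9 (chr6:32854019-32854078): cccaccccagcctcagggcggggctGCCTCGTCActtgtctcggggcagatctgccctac

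The next stretches hold, in capitals, the gamma-activated site of PSMB8, the interferon-stimulated response element of PSMB10, and CCAAT boxes of PSMD8, PSMD7 and PSMA5. PSMB8 and PSMB10 are shown because interferon-gamma induces both genes, and the others because results below turn on them.
PSMB8 (chr6:32844078-32844137): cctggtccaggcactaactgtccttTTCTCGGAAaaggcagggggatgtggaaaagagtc
PSMB10 (chr16:67936851-67936910): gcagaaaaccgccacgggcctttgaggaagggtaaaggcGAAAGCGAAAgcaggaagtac
PSMD8 (chr19:38374456-38374515): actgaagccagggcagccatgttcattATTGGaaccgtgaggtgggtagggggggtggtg
PSMD7 (chr16:74296589-74296648): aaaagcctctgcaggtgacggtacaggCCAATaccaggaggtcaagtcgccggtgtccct
PSMA5 (chr1:109426499-109426558): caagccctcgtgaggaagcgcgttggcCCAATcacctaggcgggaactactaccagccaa

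**Figure D1:**
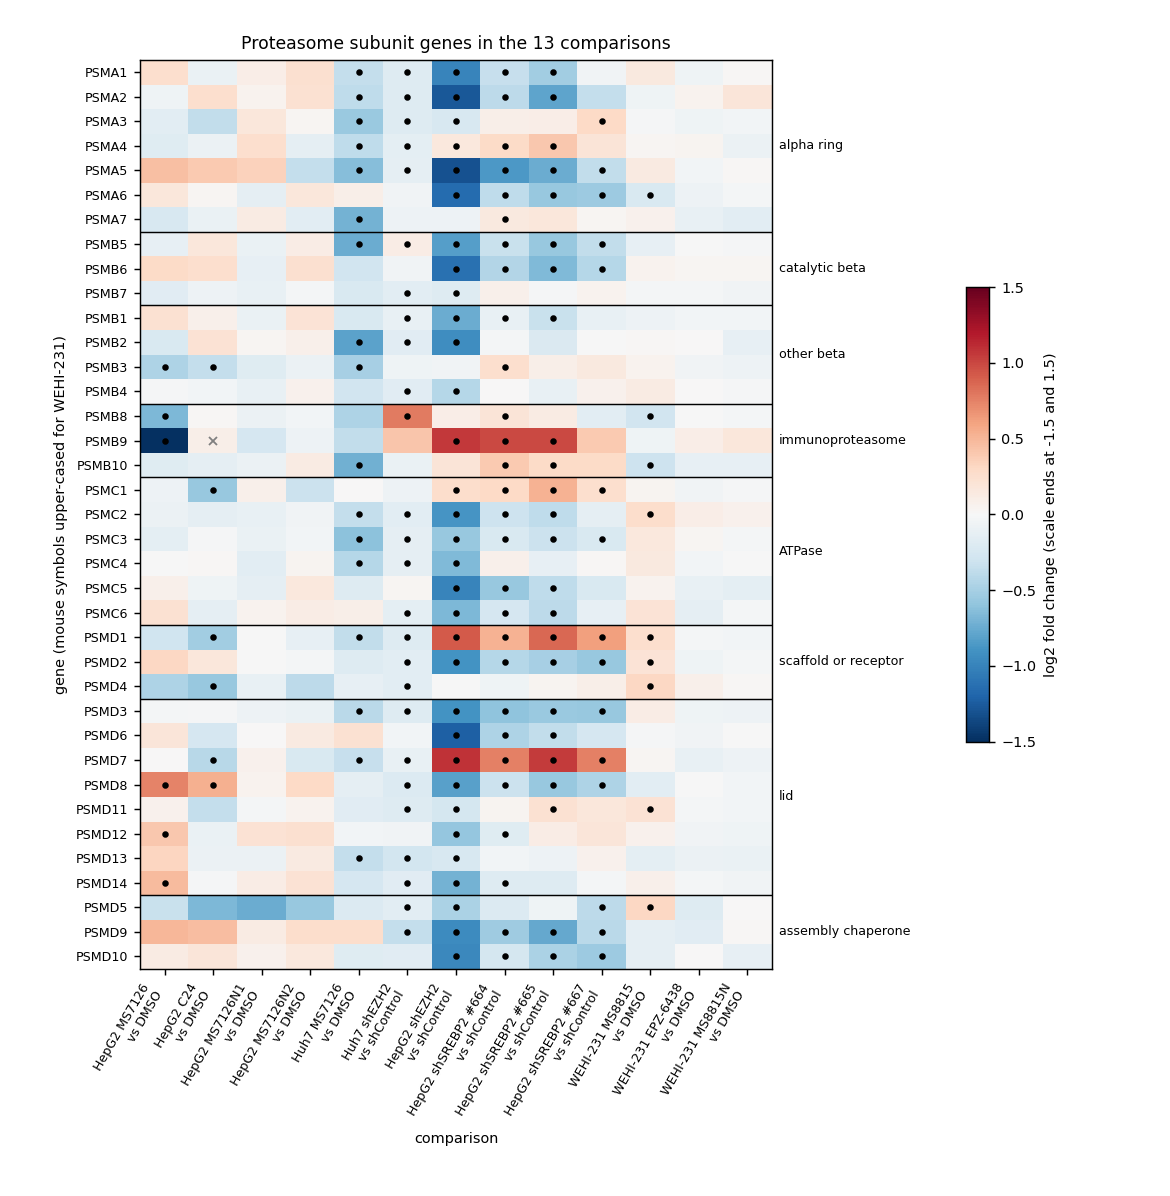
Log2 fold change of each proteasome subunit gene (rows, grouped by role) in each comparison (columns), with the compound or hairpin over its control. A black dot marks an adjusted p under 0.05 and a cross a gene without an adjusted p. Blue fills most of the Huh7 MS7126 column (17 genes called lower) and of the column of HepG2 libraries labelled shEZH2 (27 lower), and the columns of MS7126N1, MS7126N2, EPZ-6438 and MS8815N hold no dot. PSMD5 in the 4 HepG2 compound columns has a standard error of at least 1.42.

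In HepG2 cells treated with MS7126, few proteasome genes passed the test, in shares close to those over all genes. By the authors' deposited table, 3 of 37 members rose at an adjusted p under 0.05, against 7.44% of all genes tested, and 3 fell, against 8.06%. The median log2 fold change of the members was -0.01, beside 0.02 for genes with a mean of at least 100 normalised counts. The 3 that rose, PSMD8, PSMD12 and PSMD14, all belong to the lid, and the 3 that fell, PSMB3, PSMB8 and PSMB9, all belong to the beta rings. Most genes of these parts were not called. Those not called were 5 of 8 lid genes, 3 of 4 non-catalytic beta genes, all 3 constitutive catalytic genes and PSMB10.

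PSMD8, a lid subunit, had 1993 normalised counts with MS7126, against 1190 with DMSO, 0.74 on the log2 scale (SE 0.17, adjusted p = 0.000401) in the authors' deposited table. PSMD14, the deubiquitinase that removes ubiquitin chains before degradation, had 2066 normalised counts with MS7126, against 1481 with DMSO (0.48, SE 0.16, adjusted p = 0.0179 in the authors' deposited table). PSMD12, a lid scaffold subunit, had 1574 with MS7126, against 1190 with DMSO (0.40, SE 0.15, adjusted p = 0.0479 in the authors' deposited table), and its adjusted p was 0.0534 when the adjustment ran over genes with a mean of at least 10. All 3 thus stood between 1.32-fold and 1.67-fold above DMSO.

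PSMB9, the immunoproteasome counterpart of PSMB6, changed most of all members. It had 48.6 normalised counts with MS7126, against 142 with DMSO, -1.54 on the log2 scale (SE 0.43, adjusted p = 0.00424) in the authors' deposited table. PSMB8, the counterpart of PSMB5, had 284 with MS7126, against 452 with DMSO (-0.67, SE 0.23, adjusted p = 0.0297 in the authors' deposited table). PSMB10, the counterpart of PSMB7, had 550 with MS7126, against 623 with DMSO, and did not pass (-0.18, SE 0.22, adjusted p = 0.686 in the authors' deposited table). In the authors' deposited table none of the constitutive partners passed: PSMB5 was at -0.12 (SE 0.17), PSMB6 at 0.29 (SE 0.19), PSMB7 at -0.17 (SE 0.16). PSMB3, a non-catalytic beta subunit, had 2619 normalised counts with MS7126, against 3604 with DMSO (-0.46, SE 0.14, adjusted p = 0.00906 in the authors' deposited table). PSMD5, whose log2 fold change was -0.34 there, had a standard error of 1.51 in the authors' deposited table, so its level cannot be compared.

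C24, the matched inhibitor, gave another set of calls. By the authors' deposited results, 1 member rose, against 3.01% of genes tested, and 5 fell, against 4.01%. PSMB9 had no adjusted p there and stood at 153 normalised counts with C24, against 143 with DMSO. PSMD8 rose with C24 as well, with 1741 normalised counts, against 1205 with DMSO (0.53, SE 0.15, adjusted p = 0.00823 in the authors' deposited table). The 5 that fell were PSMC1 (-0.57, SE 0.15), an ATPase, PSMD4 (-0.57, SE 0.15), a ubiquitin receptor, PSMD1 (-0.52, SE 0.17), the scaffold of the cap, PSMD7 (-0.41, SE 0.12), a lid subunit, and PSMB3 (-0.35, SE 0.11), all in the authors' deposited table. PSMB8 was at 475 normalised counts with C24, against 470 with DMSO (0.01, SE 0.20 in the authors' deposited table).

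The analogs MS7126N1 and MS7126N2 moved no member past the threshold in the authors' deposited tables, whose columns are those DESeq2 writes. With MS7126N1 no member was called, against 0.159% of genes tested, and 0 members had an unadjusted p under 0.05. With MS7126N2 no member was called, against 0.703%, and PSMD4 alone had an unadjusted p under 0.05. PSMB9 had 116 normalised counts with MS7126N1, against 138 with DMSO, and 131 with MS7126N2, against 139 with DMSO, by the authors' deposited tables. In the authors' deposited tables the log2 value of PSMD8 was 0.05 (SE 0.20) with MS7126N1 and 0.30 (SE 0.18) with MS7126N2. In the authors' deposited tables the members' highest values were 0.34 for PSMA5 with MS7126N1 and 0.30 for PSMD8 with MS7126N2, and the lowest were PSMD5, with standard errors of 1.42 and 1.45.

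The difference between compounds at the same dose and time was tested directly, as the difference of log2 fold changes with a normal test adjusted over all genes. Between MS7126 and C24 PSMB9 was lower with MS7126, by 1.64 on the log2 scale (difference -1.64, 95% interval -2.69 to -0.58, adjusted p = 0.0397). It was the only member called in that direction, against 3.73% of genes tested, and no member was higher, against 2.53%. Between MS7126 and MS7126N1 no member differed, against 4.40% of genes tested, with 2 members at an unadjusted p under 0.05. Between MS7126 and MS7126N2 no member differed either, against 1.86%, again with 2 at an unadjusted p under 0.05. The intervals were wide: for PSMB9 the difference was -1.30 from MS7126N1 (95% interval -2.39 to -0.21, adjusted p = 0.229) and -1.47 from MS7126N2 (-2.55 to -0.38, adjusted p = 0.222). For PSMD8 the difference was 0.21 from C24 (-0.23 to 0.66), 0.70 from MS7126N1 (0.17 to 1.22) and 0.45 from MS7126N2 (-0.05 to 0.94). These tests leave out the covariance of the shared DMSO libraries, and with an assumed covariance 7 members differed between MS7126 and C24, 2 between MS7126 and MS7126N1, and 2 between MS7126 and MS7126N2.

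**Figure D2:**
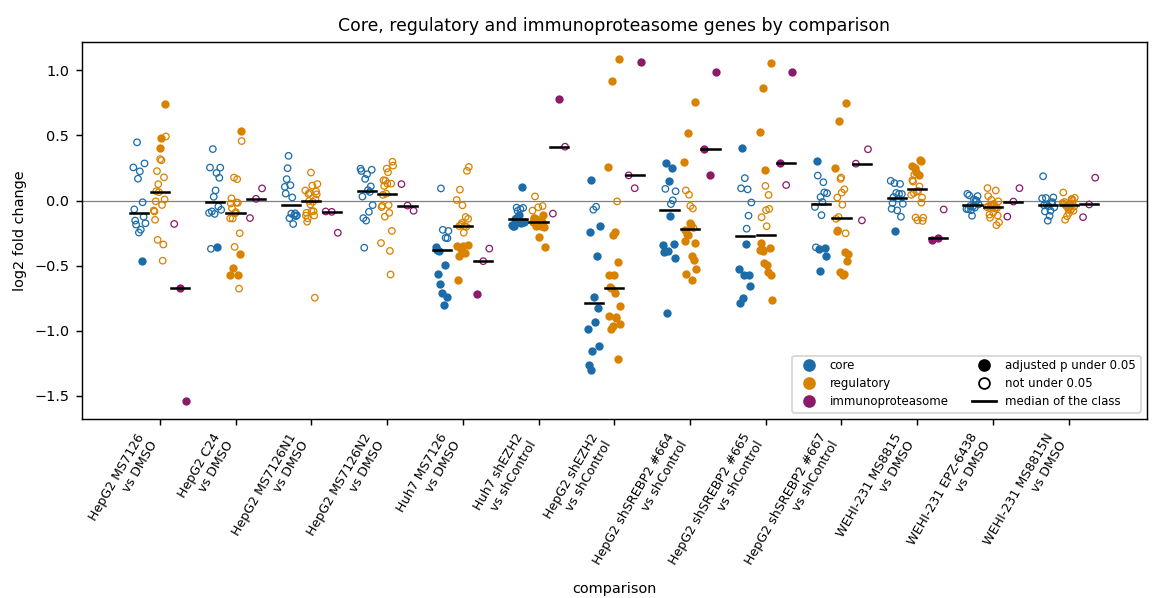
Log2 fold changes by class: each point is a gene, filled where the adjusted p is under 0.05, and each bar is the median of the 14 core, 20 regulatory or 3 immunoproteasome genes. In Huh7 with MS7126 the core median is -0.38 and the regulatory median -0.20, and in the HepG2 hairpin groups the immunoproteasome median lies above zero while the other medians lie below it.

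In Huh7 cells the same compound went with lower levels across the core particle. By the authors' deposited table, a total of 17 of 37 members fell with MS7126, against 16.3% of genes tested, and none rose, against 17.5%. The median of the members was -0.34 on the log2 scale, beside 0.01 for genes with a mean of at least 100 normalised counts. Of the 14 core genes 9 fell (median -0.38), of the 20 regulatory genes 7 fell (median -0.20), and of the immunoproteasome genes PSMB10 fell. The alpha ring had 6 of its 7 genes called, all but PSMA6 (0.09, SE 0.12 in the authors' deposited table).

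PSMB2, a non-catalytic beta subunit, fell furthest, to 4393 normalised counts with MS7126, against 7654 with DMSO (-0.80, SE 0.10, adjusted p = 1.51e-13 in the authors' deposited table). PSMB5, which carries the chymotrypsin-like site, had 2807 with MS7126, against 4699 with DMSO (-0.74, SE 0.13, adjusted p = 6.21e-08 in the authors' deposited table). PSMA7, an alpha-ring gene, had 6845 with MS7126, against 11174 with DMSO (-0.71, SE 0.15, adjusted p = 1.31e-05 in the authors' deposited table). PSMC3, an ATPase, led the cap genes with 3875 with MS7126, against 5926 with DMSO (-0.61, SE 0.12, adjusted p = 2.99e-06 in the authors' deposited table). The other catalytic genes did not pass in the authors' deposited table, PSMB6 at -0.29 (SE 0.14) and PSMB7 at -0.23 (SE 0.10).

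PSMB10 had 206 normalised counts with MS7126, against 339 with DMSO (-0.72, SE 0.26, adjusted p = 0.0214 in the authors' deposited table). PSMB8 and PSMB9 were scarce in Huh7 and their errors large. PSMB8 had 40.1 normalised counts with MS7126, against 55.4 with DMSO (-0.47, SE 0.58), and PSMB9 had 40.6, against 52.5 (-0.37, SE 0.59), by the authors' deposited table. PSMD9, an assembly chaperone, had the highest value of the members and did not pass (0.26, SE 0.16, adjusted p = 0.209 in the authors' deposited table). The direction of this table could not be checked against a second table with the same controls, as it could for the other compound tables, and was taken as MS7126 over DMSO. Read the other way, the same 17 members would have risen.

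The response to MS7126 differed between the lines for 7 members, all higher in HepG2 relative to Huh7, against 4.07% of genes tested. None was lower, against 3.48%. The median difference over the members was 0.31 on the log2 scale, beside 0.02 over all genes tested. PSMA5 had 1525 normalised counts with MS7126, against 1118 with DMSO, in HepG2, and 1955 with MS7126, against 3053 with DMSO, in Huh7. Its difference was the largest among the 7, 1.09 (SE 0.34, 95% interval 0.43 to 1.75, adjusted p = 0.0212). These differences rest on the direction taken for the Huh7 table: with it turned, an alternative added after the data were seen, 13 members differed, 2 higher and 11 lower in HepG2, and PSMA5 was at -0.20 and did not pass. PSMD8 differed by 0.88 (SE 0.20, interval 0.49 to 1.28, adjusted p = 0.000654) and PSMD14 by 0.73 (SE 0.19, interval 0.35 to 1.10, adjusted p = 0.00469), both lid genes that rose in HepG2 and did not pass in Huh7.

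The other 4 were PSMD13, a lid gene, with 0.67 (adjusted p = 0.0424), PSMB5 with 0.62 (adjusted p = 0.0481), PSMA1, an alpha-ring gene, with 0.61 (adjusted p = 0.0459), and PSMB2 with 0.58 (adjusted p = 0.04997). They lay just inside the threshold, and 3 of the 7 remained called without a minimum on the mean, where more genes were tested. The immunoproteasome genes were not called: the difference was -1.18 for PSMB9 (95% interval -2.61 to 0.26) and -0.21 for PSMB8 (-1.43 to 1.01). Cell line, treatment time and table cannot be told apart here.

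**Figure D3:**
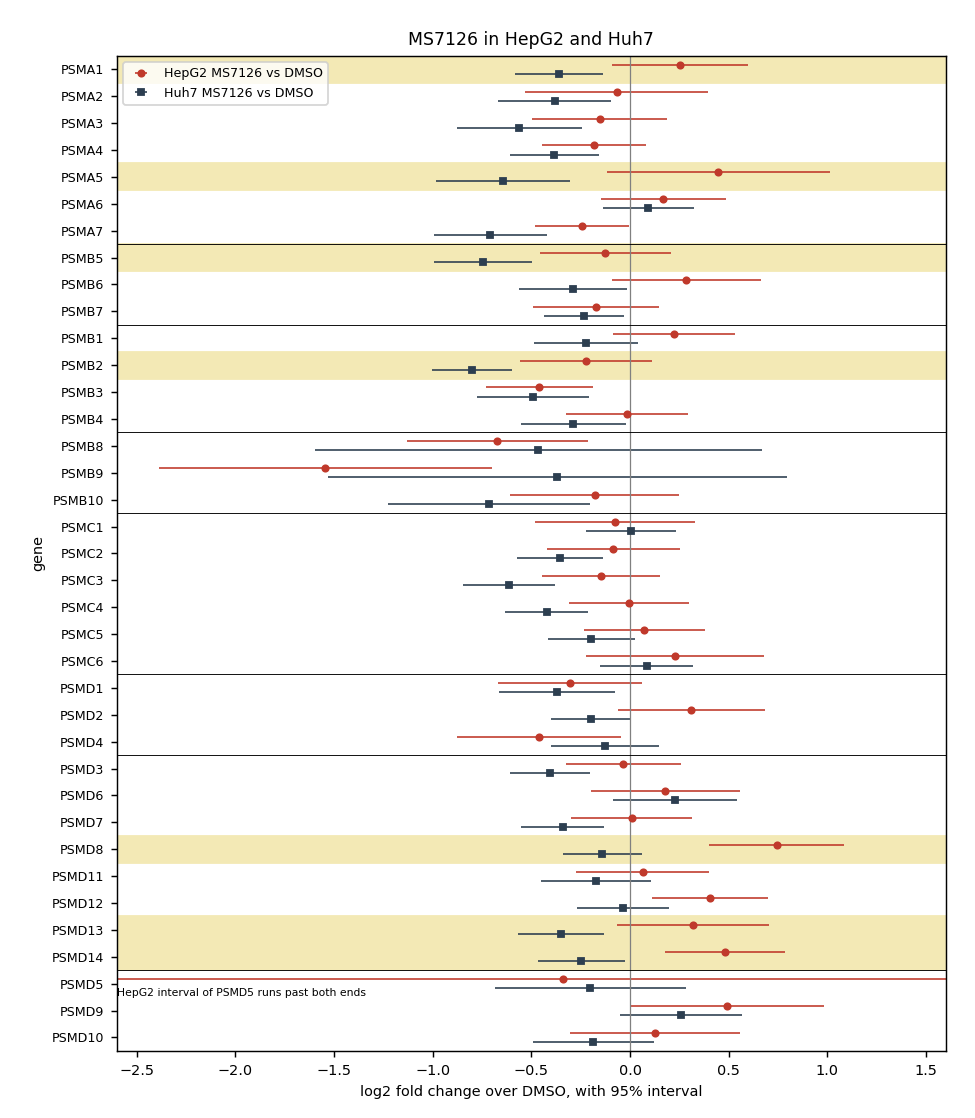
Log2 fold change of each member over DMSO with its 95% interval, HepG2 (circles) above Huh7 (squares) for each gene. Shaded rows mark the 7 members whose difference between lines had an adjusted p under 0.05. In each of them the HepG2 point lies right of the Huh7 point, by 0.58 to 1.09.

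With the EZH2 hairpin in Huh7, members fell by small and even amounts. EZH2 itself had 13.3 and 14.0 CPM in the shEZH2 libraries, against 82.6 and 89.7 CPM in the shControl libraries. The test by edgeR called 24 of 37 members lower, against 19.3% of genes tested, and 2 higher, against 19.5%. The scatter between libraries of a group was small, with a common coefficient of variation beyond counting noise of 0.0187 by edgeR. Whether this scatter holds any variation between cultures is not known. The median of the members was -0.14, beside -0.02 for genes with a mean of at least 100 counts. Calls came from both classes, with 9 of 14 core genes (median -0.14) and 15 of 20 regulatory genes (median -0.16) lower. The authors' deposited table and DESeq2 on the same counts each called 19 lower and 0 higher.

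Per library, 28 of 37 members had both shEZH2 libraries below both shControl libraries, against 34.5% of genes tested, and 2 had both above, against 34.1%. PSMD13, a lid subunit, had 158 and 167 CPM in the shEZH2 libraries, against 200 and 195 CPM in the shControl libraries. The groups did not overlap, and edgeR put the change at -0.28 on the log2 scale (SE 0.04, adjusted p = 2.03e-05). PSMD1, the cap scaffold, had 283 and 279 CPM with shEZH2, against 323 and 322 CPM with shControl (-0.20, SE 0.03, adjusted p = 4.46e-05 by edgeR). PSMA2, an alpha-ring gene, had 258 and 269 CPM with shEZH2, against 301 and 302 CPM with shControl (-0.20, SE 0.03, adjusted p = 9.94e-05 by edgeR). PSMD2, the other large cap scaffold, had 412 and 417 CPM with shEZH2, against 474 and 454 CPM with shControl (-0.16, SE 0.03, adjusted p = 0.000194 by edgeR). In each of these genes every shEZH2 library lay below every shControl library.

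PSMD9, an assembly chaperone, had the largest fall, with 29.4 and 28.2 CPM in the shEZH2 libraries, against 37.9 and 35.5 CPM in the shControl libraries (-0.35, SE 0.08, adjusted p = 0.00138 by edgeR). Both genes called higher were of the chymotrypsin-like pair. PSMB8 had 7.32 and 7.40 CPM with shEZH2, against 4.01 and 4.59 CPM with shControl (0.78, SE 0.19, adjusted p = 0.00335 by edgeR), and its adjusted p was 0.0578 by DESeq2. PSMB5 had 230 and 221 CPM with shEZH2, against 212 and 206 CPM with shControl (0.11, SE 0.03, adjusted p = 0.0203 by edgeR). Without the first shEZH2 library, or without the second shControl library, PSMB5 no longer passed, with adjusted p of 0.172 and 0.132 by edgeR. PSMB9 had 1.85 and 2.91 CPM with shEZH2, against 1.69 and 1.90 CPM with shControl, and the groups overlapped (0.41, SE 0.35, adjusted p = 0.388 by edgeR). PSMB10 (-0.10, SE 0.11), PSMB6 (-0.06, SE 0.04) and PSMA7 (-0.08, SE 0.03) were not called by edgeR, whereas PSMB7 fell (-0.16, SE 0.03, adjusted p = 0.00106).

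**Figure D4:**
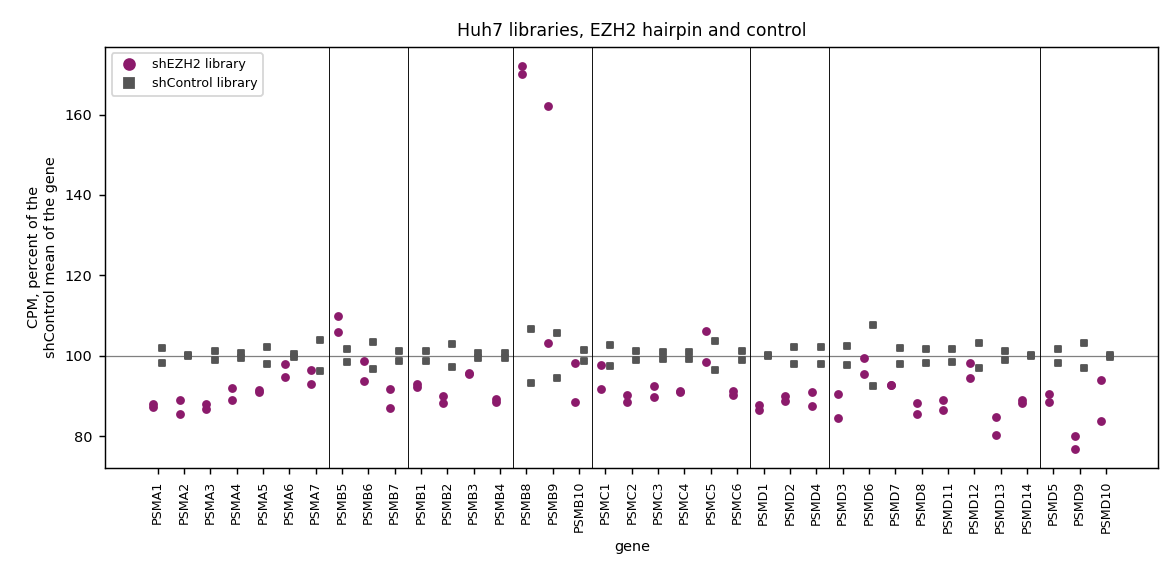
CPM of each member in each of the 4 Huh7 hairpin libraries, as percent of the gene's shControl mean, with shEZH2 libraries (circles) left of shControl libraries (squares). Most circles lie below 100, for instance PSMD13 at 158 and 167 CPM, while both circles of PSMB8 lie far above, at 7.32 and 7.40 CPM.

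Among the HepG2 hairpin groups, the libraries labelled shEZH2 had the largest number of changed members of any comparison. By the authors' deposited table, a total of 27 of 37 members fell, against 28.6% of genes tested, and 5 rose, against 28.4%. The median of the members was -0.67, beside -0.10 for genes with a mean of at least 100, and -0.56 once that shift was taken out. In those libraries 11 of 14 core genes (median -0.78) and 16 of 20 regulatory genes (median -0.67) fell, as did all 3 constitutive catalytic genes and all 3 assembly chaperones.

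PSMA5, an alpha-ring gene, fell furthest in the libraries labelled shEZH2, to 1412 normalised counts, against 3479 with shControl (-1.30, SE 0.08, adjusted p = 4.33e-59 in the authors' deposited table). PSMA2 had 1466, against 3527 with shControl (-1.27, SE 0.07), and PSMA6 4514, against 10044 (-1.15, SE 0.05), by the authors' deposited table. PSMC5, an ATPase, had 2919, against 5790 with shControl (-0.99, SE 0.06, adjusted p = 3.02e-68 in the authors' deposited table). The catalytic genes were at -1.12 for PSMB6 (SE 0.07), -0.82 for PSMB5 (SE 0.04) and -0.19 for PSMB7 (SE 0.06) in the authors' deposited table, and PSMB7 no longer passed once the shift of the median gene was taken out (adjusted p = 0.140).

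Against this fall stood 5 genes from different parts of the particle. PSMD7, a lid subunit, had 5756 normalised counts in the libraries labelled shEZH2, against 2708 with shControl (1.09, SE 0.06, adjusted p = 2.22e-69 in the authors' deposited table). PSMD1 had 9648, against 5115 with shControl (0.92, SE 0.05, adjusted p = 4.23e-63 in the authors' deposited table). PSMB9 had 534, against 255 with shControl (1.06, SE 0.16, adjusted p = 2.53e-10 in the authors' deposited table). PSMC1 (0.26, SE 0.06) and the alpha-ring gene PSMA4 (0.16, SE 0.06) rose by less in the authors' deposited table. PSMD1 overlaps HTR2B, PSMD7 overlaps AC009120.2 and PSMB9 overlaps PSMB8 and TAP1, on the opposite strand in GENCODE, and PSMC1 has 13 named pseudogenes. Genes that fell share such traits: PSMA2 overlaps MRPL32 and has 3 named pseudogenes, PSMA6 has 4, and PSMC5 overlaps FTSJ3. The counts of all these genes may include reads from such neighbours or pseudogenes, which was not tested.

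The SREBP2 hairpins shared these controls, and their values are given side by side. With #664, 19 members fell, against 26.8% of genes tested, and 9 rose, against 24.9%, by the authors' deposited table (median -0.18, beside -0.06 for genes with a mean of at least 100, and -0.12 recentred on that median gene). With #665, 17 fell, against 20.0%, and 7 rose, against 18.7% (median -0.20 in the authors' deposited table, beside -0.07 for genes with a mean of at least 100, and -0.12 recentred). With #667, 11 fell, against 19.3%, and 4 rose, against 18.6% (median -0.05 in the authors' deposited table, beside -0.05 for genes with a mean of at least 100). Recentred, its median was 0.00, with 9 lower and 6 higher.

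With #664, PSMD7 had 6128 normalised counts, against 3626 with shControl (0.76, SE 0.04), and PSMB9 had 677, against 342 (0.99, SE 0.14), by the authors' deposited table. PSMD1 (0.52, SE 0.04), PSMB3 (0.25, SE 0.03) and PSMA4 (0.29, SE 0.04) rose too, as did PSMB10 (0.39, SE 0.07) and PSMB8 (0.19, SE 0.07), in the authors' deposited table. PSMA5 fell furthest, to 2558 normalised counts with #664, against 4660 with shControl (-0.87, SE 0.05), and the lid gene PSMD3 (-0.61, SE 0.04), PSMC5 (-0.57, SE 0.04) and, by less, PSMA6 (-0.39, SE 0.03) also fell in the authors' deposited table. All 3 immunoproteasome genes thus rose with #664, while PSMB5 (-0.33, SE 0.03) and PSMB6 (-0.44, SE 0.05) fell and PSMB7 did not pass (0.07, SE 0.04) in the authors' deposited table.

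With #665, PSMD7 had 6332 normalised counts, against 3050 with shControl (1.05, SE 0.12), and PSMB9 had 570, against 287 (0.99, SE 0.18), by the authors' deposited table. PSMD1 (0.87, SE 0.12) and PSMC1 (0.53, SE 0.12) rose, and PSMA2 (-0.79, SE 0.13), PSMD9 (-0.77, SE 0.14), PSMA5 (-0.75, SE 0.14) and PSMD3 (-0.55, SE 0.10) fell in the authors' deposited table. With #667, PSMD7 (0.75, SE 0.14), PSMD1 (0.61, SE 0.13), PSMA3 (0.30, SE 0.10) and PSMC1 (0.25, SE 0.10) rose in the authors' deposited table. PSMD2 (-0.57, SE 0.10), PSMD3 (-0.57, SE 0.11), PSMA6 (-0.54, SE 0.10) and PSMD8 (-0.47, SE 0.10) fell with #667 in the authors' deposited table. PSMB9 did not pass with #667, at 377 normalised counts, against 287 with shControl (0.39, SE 0.20, adjusted p = 0.101 in the authors' deposited table).

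Differences between these groups, added after the data were seen, were tested as for the compounds. Relative to #664, 28 members were lower in the libraries labelled shEZH2, against 16.3% of genes tested, and 2 were higher, against 13.1%, with a median of -0.42, beside 0.01 over all genes. PSMB2 differed most (-0.90, 95% interval -1.04 to -0.77), followed by PSMA2 (-0.87, interval -1.04 to -0.71), and PSMD1 (0.39) and PSMD7 (0.33) were the 2 higher. PSMB9 did not differ there by this test (0.08, interval -0.34 to 0.49). Between the SREBP2 hairpins the differences were few. With #665 relative to #664, PSMA2 was lower (-0.40, adjusted p = 0.0444), against 7.22% of genes tested, and no member was higher, against 5.49%. With #667 relative to #664, PSMA5 (0.49), PSMC5 (0.34) and PSMD12 (0.35) were higher, against 4.52%, and no member was lower, against 5.36%, with 7 members at an unadjusted p under 0.05 by this normal test. For #665 against #664 the count at an unadjusted p under 0.05 was 4.

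In WEHI-231 cells, MS8815 went with higher levels of some regulatory genes, by small amounts. By the authors' deposited results, 6 members rose, against 5.34% of genes tested, all of them regulatory, and 3 fell, against 11.8%. The median of the members was 0.05, beside -0.05 for genes with a mean of at least 100, and 0.10 once that shift was taken out. Recentred on the median gene, 8 members rose and none fell, so the calls of the 3 lower genes depend on the scaling.

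Psmd4, a ubiquitin receptor, had 2384 normalised counts with MS8815, against 1922 with DMSO (0.31, SE 0.09, adjusted p = 0.00306 in the authors' deposited table). Psmd1 had 3504 with MS8815, against 2945 with DMSO (0.25, SE 0.07, adjusted p = 0.00494 in the authors' deposited table). Psmd2 had 6144 with MS8815, against 5348 with DMSO (0.20, SE 0.06, adjusted p = 0.0107 in the authors' deposited table). These are the scaffold and receptor genes at the base of the cap, and all 3 rose. The ATPase gene Psmc2 (0.26, SE 0.09), the lid gene Psmd11 (0.22, SE 0.07) and the chaperone gene Psmd5 (0.31, SE 0.11) rose as well in the authors' deposited table.

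Psmb10 had 1086 normalised counts with MS8815, against 1342 with DMSO (-0.31, SE 0.11, adjusted p = 0.0275 in the authors' deposited table). Psmb8 had 1658 with MS8815, against 2022 with DMSO (-0.29, SE 0.11, adjusted p = 0.0421 in the authors' deposited table). Psmb9 had 902 with MS8815, against 946 with DMSO, and did not pass (-0.07, SE 0.13 in the authors' deposited table). Psma6, an alpha-ring gene, had 2704 with MS8815, against 3180 with DMSO (-0.23, SE 0.07, adjusted p = 0.0145 in the authors' deposited table). Recentred on the median gene, the adjusted p was 0.1005 for Psmb10, 0.142 for Psmb8 and 0.0899 for Psma6. The constitutive partners Psmb5 (-0.12, SE 0.08), Psmb6 (0.05, SE 0.08) and Psmb7 (-0.02, SE 0.08) did not pass in the authors' deposited table.

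EPZ-6438 and MS8815N moved no member past the threshold in the authors' deposited tables. No member was called with EPZ-6438, against 0.243% of genes tested, and none with MS8815N, against 0.119%, and 0 members had an unadjusted p under 0.05 in either. In the authors' deposited tables the members ran from -0.19 to 0.10 with EPZ-6438 and from -0.15 to 0.19 with MS8815N. Tested directly, MS8815 exceeded EPZ-6438 for Psmd5 (0.49, SE 0.16, adjusted p = 0.0471) and Psmd2 (0.26, SE 0.08, adjusted p = 0.0489), against 1.14% of genes tested, and no member was lower, against 2.87%. Between MS8815 and MS8815N no member differed, against 2.55%, with 4 members at an unadjusted p under 0.05 by the normal test. For Psmd5 that difference was 0.30 (95% interval -0.03 to 0.63), for Psmb8 -0.26 (-0.54 to 0.03) and for Psmb10 -0.18 (-0.49 to 0.14).

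The immunoproteasome genes were also set against the constitutive partners whose places they take. Adjusted for transcript length, PSMB9 stood at 3.10% of PSMB6 in HepG2 with MS7126, against 11.02% with DMSO, a change of -1.83 on the log2 scale (SE 0.47). PSMB8 stood at 5.74% of PSMB5 with MS7126, against 8.39% with DMSO, and PSMB10 at 18.8% of PSMB7, against 18.9%. In Huh7 all 3 ratios were small: with MS7126 PSMB8 was at 1.65% of PSMB5, against 1.36% with DMSO, and PSMB9 at 1.26% of PSMB6, against 1.33%. PSMB10 was at 3.05% of PSMB7 with MS7126 in Huh7, against 4.26% with DMSO.

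In the HepG2 hairpin groups the PSMB9 to PSMB6 ratio was above that of the shared shControl libraries each time, 34.1% in the libraries labelled shEZH2, 20.2% with #664, 23.5% with #665 and 13.3% with #667, against about 7.52% with shControl. In the libraries labelled shEZH2 PSMB8 was at 16.4% of PSMB5, against 8.70% with shControl. In Huh7 with shEZH2 PSMB8 was at 3.76% of PSMB5, against 2.37% with shControl. These ratios combine both genes, and PSMB5 and PSMB6 fell in the HepG2 hairpin groups. In WEHI-231 with MS8815 the ratio changed by -0.16 for Psmb8 to Psmb5, -0.12 for Psmb9 to Psmb6 and -0.28 for Psmb10 to Psmb7 on the log2 scale. The standard errors, formed as if the genes were independent, were 0.13 to 0.15.

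**Figure D5:**
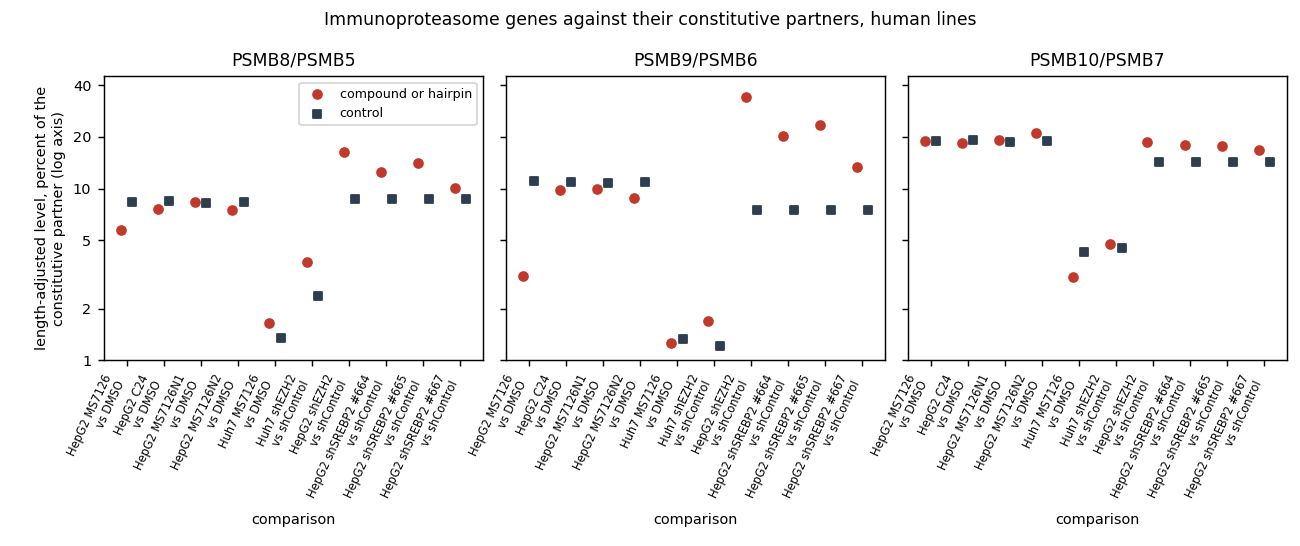
Length-adjusted level of PSMB8, PSMB9 and PSMB10 as percent of the constitutive partner PSMB5, PSMB6 and PSMB7 (log axis) in the 10 human comparisons, with the compound or hairpin left of its control. PSMB9 drops to 3.10% with MS7126 in HepG2, against 11.02% with DMSO, and reaches 34.1% in the HepG2 libraries labelled shEZH2, against 7.53% with shControl.

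Among the 10 listed regulators of proteasome transcription, NFE2L1 and NFE2L2 encode related activators that bind the antioxidant response element, and the MAF genes encode their partners. In HepG2 with MS7126, 3 rose and none fell, against 7.44% and 8.06% of all genes tested: NFE2L2 (0.69, SE 0.13), MAFG (0.85, SE 0.21) and MAFK (0.84, SE 0.27), by the authors' deposited table. With C24 none rose and NFE2L3, another gene of that family, fell (-0.55, SE 0.18, in the authors' deposited table), against 3.01% and 4.01% of all genes. In Huh7 with MS7126, 6 rose and none fell, against 17.5% and 16.3% of all genes, among them MAFF (1.10, SE 0.22), MAFG (0.84, SE 0.16), MAFK (0.84, SE 0.16) and NGLY1 (0.49, SE 0.13), an enzyme that processes NFE2L1, by the authors' deposited table. NFE2L1 (0.37, SE 0.13) and NFE2L2 (0.37, SE 0.11) were the others in Huh7 in the authors' deposited table. In the HepG2 hairpin groups, by the authors' deposited tables, 4 rose and 2 fell in the libraries labelled shEZH2, against 28.4% and 28.6% of all genes. With #664 3 rose and 2 fell (24.9% and 26.8% of all genes), with #665 2 rose and 2 fell (18.7% and 20.0%), and with #667 3 rose and 2 fell (18.6% and 19.3%). NFE2L3 was among those that fell each time, at -0.70 in the libraries labelled shEZH2, -1.19 with #664, -0.78 with #665 and -0.68 with #667 in the authors' deposited tables. The others that fell were MAFK in the libraries labelled shEZH2 (-0.36) and with #665 (-0.59), and KEAP1, which restrains NFE2L2, with #664 (-0.28) and #667 (-0.34) in the authors' deposited tables. MAFG rose by 1.09 in the libraries labelled shEZH2, 0.68 with #664, 0.96 with #665 and 0.79 with #667 on the log2 scale of the authors' deposited tables. DDI2, the protease that activates NFE2L1, rose by 1.01 in the libraries labelled shEZH2, 0.56 with #664, 0.80 with #665 and 0.77 with #667 in the authors' deposited tables. NFE2L1 itself was at 0.33 in the libraries labelled shEZH2, 0.58 with #664 and 0.44 with #667, where it passed, and at 0.17 with #665, where it did not, in the authors' deposited tables. With MS7126 in HepG2 NFE2L1 was at 0.22 and did not pass in the authors' deposited table. In Huh7 with shEZH2, 3 of the regulators rose and 3 fell by edgeR, against 19.5% and 19.3% of all genes. NFE2L2 had 284 and 285 CPM with shEZH2, against 320 and 324 CPM with shControl, and DDI2 100 and 94.4, against 106 and 116. By library, NFE2L2, DDI2, NGLY1 and MAFK lay below shControl without overlap, as did 34.5% of all genes. NFE2L3, MAFG and BACH1 lay above, as did 34.1%, and NFE2L1, MAFF and KEAP1 overlapped. In WEHI-231 with MS8815 3 rose, Bach1 most (0.79, SE 0.13 in the authors' deposited table), and none fell, against 5.34% and 11.8% of all genes.

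Partners of the proteasome outside the name rule moved in both directions. In HepG2 with MS7126, 2 of the 14 measured rose and none fell, against 7.44% and 8.06% of all genes, by the authors' deposited table. They were PSMF1, which encodes an inhibitor of the core particle (0.92, SE 0.15), and PSME3, a nuclear activator (0.64, SE 0.15). In Huh7 with MS7126, 3 of 14 rose and 4 fell, against 17.5% and 16.3% of all genes. Among those that fell was ADRM1, a ubiquitin receptor (-0.52, SE 0.13 in the authors' deposited table). In the HepG2 libraries labelled shEZH2, 3 of 16 rose and 10 fell, against 28.4% and 28.6% of all genes. The falls were led by ADRM1 (-1.18, SE 0.05), the assembly factor gene POMP (-1.17, SE 0.08) and PSMG1 (-1.01, SE 0.08) in the authors' deposited table. In Huh7 with shEZH2, 2 of 14 rose and 7 fell by edgeR, against 19.5% and 19.3% of all genes. The 2 that rose were the activator genes PSME1 and PSME2. PSME1 had 109 and 103 CPM with shEZH2, against 95.03 and 94.94 CPM with shControl. PSME2 had 93.1 and 94.4 CPM, against 80.9 and 80.3 CPM. Both passed by edgeR (0.16, SE 0.05, for PSME1 and 0.22, SE 0.05, for PSME2). Their shEZH2 libraries lay above shControl without overlap, as did those of 34.1% of genes tested. In WEHI-231 with MS8815, 2 of 15 rose and 4 fell, against 5.34% and 11.8% of all genes. Among those that fell were Psme1 (-0.34, SE 0.06) and Psme2 (-0.42, SE 0.06) in the authors' deposited table.

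Of the ubiquitin, shuttle and unfolding genes, Sqstm1, an autophagy receptor for ubiquitinated cargo, rose in WEHI-231 with MS8815 (0.87, SE 0.06). There 5 of 12 rose and 1 fell, against 5.34% and 11.8% of all genes, by the authors' deposited table. In Huh7 with MS7126, 2 of 11 rose and 4 fell, against 17.5% and 16.3% of all genes. The authors' deposited table gave -0.93 for UBB (SE 0.12) and -0.62 for the unfoldase gene VCP (SE 0.10). In the HepG2 libraries labelled shEZH2, 9 of 12 fell, against 28.6% of all genes, among them the shuttle gene RAD23B (-1.22, SE 0.05) and UBB (-1.16, SE 0.04), in the authors' deposited table. A further 3 rose there, against 28.4% of all genes, among them UBA1 (0.14, SE 0.05) and FAF2 (0.25, SE 0.08) in the authors' deposited table. In Huh7 with shEZH2, 2 of 11 rose and 7 fell by edgeR, against 19.5% and 19.3% of all genes. RAD23B fell by 0.88 on the log2 scale (SE 0.03) by edgeR, beside a median of -0.09 over the 11 genes.

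Of the 8 listed interferon and MHC class I genes, 4 fell and 1 rose in the HepG2 libraries labelled shEZH2, against 28.6% and 28.4% of all genes, by the authors' deposited table. With #664, 5 fell and 2 rose by the authors' deposited tables (26.8% and 24.9% of all genes), with #665 2 fell and none rose (20.0% and 18.7%), and with #667 4 fell and none rose (19.3% and 18.6%). TAP1, a peptide transporter gene, overlaps PSMB9 on the opposite strand in GENCODE. It fell in the libraries labelled shEZH2 (-0.49), with #664 (-0.53), #665 (-0.53) and #667 (-0.58) in the authors' deposited tables. NLRC5, an activator of MHC class I genes, rose in the libraries labelled shEZH2 (1.81, SE 0.21) and with #664 (0.60, SE 0.24), where B2M, the light chain of MHC class I, rose too (0.41, SE 0.03), in the authors' deposited tables. With MS7126 in HepG2, 1 of 8 listed genes fell, TAPBP (-0.85, SE 0.17), and none rose, against 8.06% and 7.44% of all genes, by the authors' deposited table. In Huh7 with MS7126, 3 fell and 1 rose, IRF1 (0.67, SE 0.23), against 16.3% and 17.5% of all genes, by the authors' deposited table. In Huh7 with shEZH2, 2 rose by edgeR, against 19.5% of all genes, among them B2M (0.10, SE 0.03), and none of the 8 fell, against 19.3%.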

How the data were processed

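RNA was sequenced in 36 libraries. Per the submitters' processing notes, STAR 2.4.2, Salmon, GRCh38 and mm10 were used; the library kit of each sample is not given in the sources used here. The authors deposited, for each comparison, a mean signal of size-factor-normalised counts, a log2 fold change, its standard error, a test score, and p-values both raw and adjusted. For Huh7 shEZH2 the authors also deposited estimated counts per library, of which 20 rows with dates in place of symbols were left out.

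Group levels were rebuilt from mean and fold change. In Huh7 shEZH2 the rebuilt log2 control level lay within -0.00111 to 0.00109 of the computed one for the middle 90% of genes. Estimated counts were rounded, and edgeR 4.0.16 tested 14581 genes (TMM scaling, quasi-likelihood F test; R 4.3.3, limma 3.58.1), and with DESeq2 1.42.0 as an alternative, with Benjamini-Hochberg adjustment over all genes and a threshold of 0.05. Differences between fold changes used summed squared standard errors and a normal test over genes with a mean of at least 10 in both tables. Python 3.11.15, pandas 2.3.3, numpy 2.4.6, scipy 1.17.1 and matplotlib 3.10.9 were used. Same-numbered Huh7 libraries share only a number. Depth in the other 12 comparisons is unknown.

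Members and lists were chosen with earlier results of these data known. Named members are up to 4 called members per direction with the smallest adjusted p, the extremes with a mean of at least 100, and PSMB5 to PSMB10; PSMA4 and PSMD1, where they complete a count of 5, PSMD9 and PSMD13 in Huh7 and PSMB3 in HepG2 were added after their values were seen. Some listed genes are not reported here. Alternatives were another threshold, normalisation, filter, centring, covariance and leaving out each library.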

Additional observations from a re-analysis of the deposited data

Results flagged for a closer look

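The response to MS7126 differed between HepG2 and Huh7, by the test of the difference itself, for 7 proteasome genes. On the log2 scale, HepG2 minus Huh7, the difference was 0.61 for PSMA1, 1.09 for PSMA5, 0.58 for PSMB2, 0.62 for PSMB5, 0.88 for PSMD8, 0.67 for PSMD13 and 0.73 for PSMD14. These values rest on the Huh7 table being MS7126 over DMSO, a direction that could not be checked against a second table. Read the other way, 13 members differed, 2 higher and 11 lower in HepG2, and PSMA5 was at -0.20. Cell line, treatment time and table cannot be told apart.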

How the results depend on the processing

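Of the recomputed counts and medians, 80 stayed close to the reported ones, 10 counts fell and 8 rose by over 1.5 times, and 2 medians moved by more than the members' median standard error. No called value of a named member changed sign under the settings planned. With the Huh7 table read as DMSO over MS7126, a setting added after seeing the data, 13 members differed for HepG2 minus Huh7, 2 higher and 11 lower. At an adjusted p under 0.01 the called members numbered 3 in HepG2 MS7126, 3 in HepG2 C24 and 2 in WEHI-231 MS8815, and the differing members 0 for MS7126 minus C24, 2 for HepG2 minus Huh7, 0 for MS8815 minus EPZ-6438, 0 for #665 minus #664 and 1 for #667 minus #664. With an assumed covariance of shared controls, 7 members differed for MS7126 minus C24, 2 for minus MS7126N1, 2 for minus MS7126N2, 7 for MS8815 minus EPZ-6438, 4 for minus MS8815N, 4 for #665 minus #664 and 5 for #667 minus #664. Without a minimum on the mean, 3 differed for HepG2 minus Huh7 and 0 for MS8815 minus EPZ-6438, since more genes were tested. Recentred on the median gene, the members' median was -0.56 in the HepG2 libraries labelled shEZH2 -0.12 with #664, -0.12 with #665, 0.00 with #667 (-0.05 as reported) and 0.10 with MS8815 in WEHI-231 (0.05 as reported); the cause of the other changes was not tested. In Huh7 shEZH2, 22 to 27 members were called when each library was left out, and 26 with the replicate block, where same-numbered libraries had a correlation of deviations of -0.0339. No paired analysis was possible for the other 12 comparisons because they give no values per library. Low counts limit PSMB8 and PSMB9 in Huh7. The differences of the HepG2 hairpin groups were chosen after seeing the data.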
